A study of Caenorhabditis elegans with 14 samples.

Results

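The 6 Hox genes of *C. elegans*, *ceh-13*, *lin-39*, *mab-5*, *egl-5*, *php-3* and *nob-1*, were followed through the RNA-seq read counts of whole larvae in 7 groups of strain and stage. They were chosen by name among the gene rows of the count files, which gave 6 of 42048 rows, and all 6 passed the filter on low counts at L4, at L1 and in the analysis of both stages. The study asked whether NFKI-1 and IKB-1, the nematode homologs of the mammalian IκB proteins, act in development through Polycomb in an animal that has no NF-κB factor, and body patterning by Hox genes is one process under Polycomb control. Deletion mutants of both genes were compared with wild type (WT) animals. The data comprised 14 count files, 8 at the L4 larval stage and 6 at L1.

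The L4 animals had grown for 36 h at 25 °C. They were WT animals of strain N2(Bristol), *nfki-1(cer1)* animals of strain CER178, *ikb-1(nr2027)* animals of strain CER185, and double mutants carrying *nfki-1(cer1)* and *ikb-1(nr2027)*, strain CER188, with 2 files for each strain. The L1 animals had been fed for 5 h and then starved for 3 h at 25 °C, and were WT, *nfki-1(cer2)* of strain CER187 and *ikb-1(cer9)* of strain CER244, with 2 libraries for each strain. The *cer1* allele is a deletion of 368 bp, *cer2* a deletion of 434 bp with an insertion of 50 bp, *cer9* a deletion of 462 bp and *nr2027* a deletion of 1911 bp. Each mutant genotype was 1 line, no double mutant was measured at L1, and the alleles differed between the stages, so that stage, allele and library preparation cannot be told apart in the mutants. In WT, stage cannot be told apart from library preparation and run, or from the starvation of the L1 animals.

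Hox genes encode homeodomain transcription factors that give cells their position along the body axis, and in nematodes as in other animals Polycomb complexes keep them silent outside their domains. In *C. elegans* the anterior gene *ceh-13* is the ortholog of *labial*, *lin-39* acts in the middle of the body and in the vulval precursor cells, and *mab-5* acts in the posterior body and in the migration of the QL neuroblast. The genes *egl-5*, *php-3* and *nob-1* belong to the Abdominal-B class and pattern the tail and the posterior embryo.

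All 6 genes lie on chromosome III, here with coordinates of the WBcel235 build, on which the reads had been aligned. *lin-39* (WBGene00003024) spans bases 7528641 to 7536632 on the minus strand and *ceh-13* (WBGene00000437) bases 7555660 to 7558041 on the plus strand, with 19027 bp between them. *mab-5* (WBGene00003102) spans bases 7776835 to 7783454 on the minus strand and *egl-5* (WBGene00001174) bases 7814374 to 7817141 on the plus strand, with 30919 bp between them. *php-3* (WBGene00004024, bases 12074218 to 12077556) and *nob-1* (WBGene00003779, bases 12077793 to 12084316) are neighbours on the minus strand, 236 bp apart, and are separated from *egl-5* by 4257076 bp. Reads were counted over exons, whose summed length was 1385 bp for *lin-39*, 921 bp for *ceh-13*, 1103 bp for *mab-5*, 1570 bp for *egl-5*, 1270 bp for *php-3* and 2150 bp for *nob-1*. No exon of the 6 genes overlapped an exon of another annotated gene.

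Reads counted on genes numbered between 19735958 and 22373456 per L4 file and between 57740500 and 63394016 per L1 library. Both L4 files of a strain differed by a ratio of 3.81 to 4.44 to the counting variance over 4513 genes, but most of that difference was the same in all 4 strains. Once it was removed the ratio was 0.654 to 0.721, below sampling noise. The files of a pair were therefore averaged and counted as 1 sample, which leaves 4 L4 samples without replicates, and L4 values are given with exact binomial 95% intervals, which hold counting error alone. The L1 libraries of a strain differed by 17.5 to 22.6 times the counting variance over 5780 genes and were kept as 2 replicates, as their labels number them. The series' design text gives 1 replicate per strain at L1, however, and if both libraries of a strain came from 1 sample, the L1 SD, SE and p-values below measure technical spread only. The targeted genes were lowest in the strains labelled as their mutants at L4, where *nfki-1* (C33A11.1 in the files) had a counts-per-million value (CPM) of 36.8 in WT, 6.85 with *nfki-1(cer1)*, 25.0 with *ikb-1(nr2027)* and 7.22 with both mutations, and *ikb-1* had 11.7, 5.80, 3.44 and 2.74 CPM. Each was also below WT in the mutant of the other gene. The log2 ratio was −1.01 (−1.33 to −0.71) for *ikb-1* in *nfki-1(cer1)* and −0.56 (−0.72 to −0.39) for *nfki-1* in *ikb-1(nr2027)*. At L1 *nfki-1* was at 152.3 ± 7.65 CPM in WT and 87.3 ± 16.2 in *nfki-1(cer2)* (SD, n = 2), and *ikb-1* at 50.5 ± 3.304 in WT and 2.20 ± 0.802 in *ikb-1(cer9)*. Marker lists of germ cells, oocytes, body muscle, neurons, epidermis, intestine and pharynx had no gene at 0 in any group, and the labels gave whole animals as the tissue.

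At L4 the 4 more posterior Hox genes were lower in both single mutants than in WT, and the 2 more anterior ones were higher. *mab-5*, *egl-5*, *php-3* and *nob-1* had between 2.59-fold and 4.40-fold fewer CPM in either single mutant than in WT. *ceh-13* and *lin-39* had between 1.48-fold and 1.96-fold more. In the double mutant all 6 genes lay between WT and both single mutants. Here CPM are scaled by TMM, a scaling that takes most genes as unchanged, among the L4 files, and lower RNA in bulk larvae may be fewer cells of a type or less RNA per cell, which cannot be told apart.

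In the anterior group, *ceh-13* had 2.63 and 2.95 CPM in the WT files, 4.35 and 4.80 with *nfki-1(cer1)*, 5.59 and 5.36 with *ikb-1(nr2027)*, and 3.07 and 3.62 for the double mutant. Both WT files lay below the files of every mutant, and those of the double mutant below those of both single mutants. These CPM rest on few reads, 49 and 55 in WT and 110 and 121 in *nfki-1(cer1)*. For *lin-39* the files held 2.90 and 3.80 CPM in WT, 4.19 and 5.75 with *nfki-1(cer1)*, 4.41 and 5.69 with *ikb-1(nr2027)*, and 3.82 and 4.48 for the double mutant. Here the second file was above the first in every strain, the files of WT lay below those of each mutant, and those of the double mutant overlapped those of both single mutants.

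Among the posterior genes *mab-5* had 5.85 and 9.49 CPM in WT, 1.38 and 2.10 with *nfki-1(cer1)*, 2.27 and 2.89 with *ikb-1(nr2027)*, and 3.87 and 5.18 for the double mutant. The strains did not overlap and WT was the highest, and again the second file was above the first in all 4 strains. *egl-5* had 13.1 and 12.2 CPM in WT, 3.84 and 3.65 with *nfki-1(cer1)*, 4.64 and 4.60 with *ikb-1(nr2027)*, and 7.19 and 6.24 for the double mutant. The order of the strains was the same as for *mab-5*, without overlap.

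*php-3* had 67.1 and 68.9 CPM in WT, 22.9 and 23.9 with *nfki-1(cer1)*, 25.8 and 26.7 with *ikb-1(nr2027)*, and 43.9 and 45.8 for the double mutant. Both files of a strain were close and no strain overlapped another. Its neighbour and paralog *nob-1* had 32.8 and 37.7 CPM in WT, 10.99 and 12.8 with *nfki-1(cer1)*, 11.2 and 12.2 with *ikb-1(nr2027)*, and 19.1 and 22.3 for the double mutant. The single mutants overlapped each other for *nob-1*, and the double mutant stood between them and WT.

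**Figure D1:**
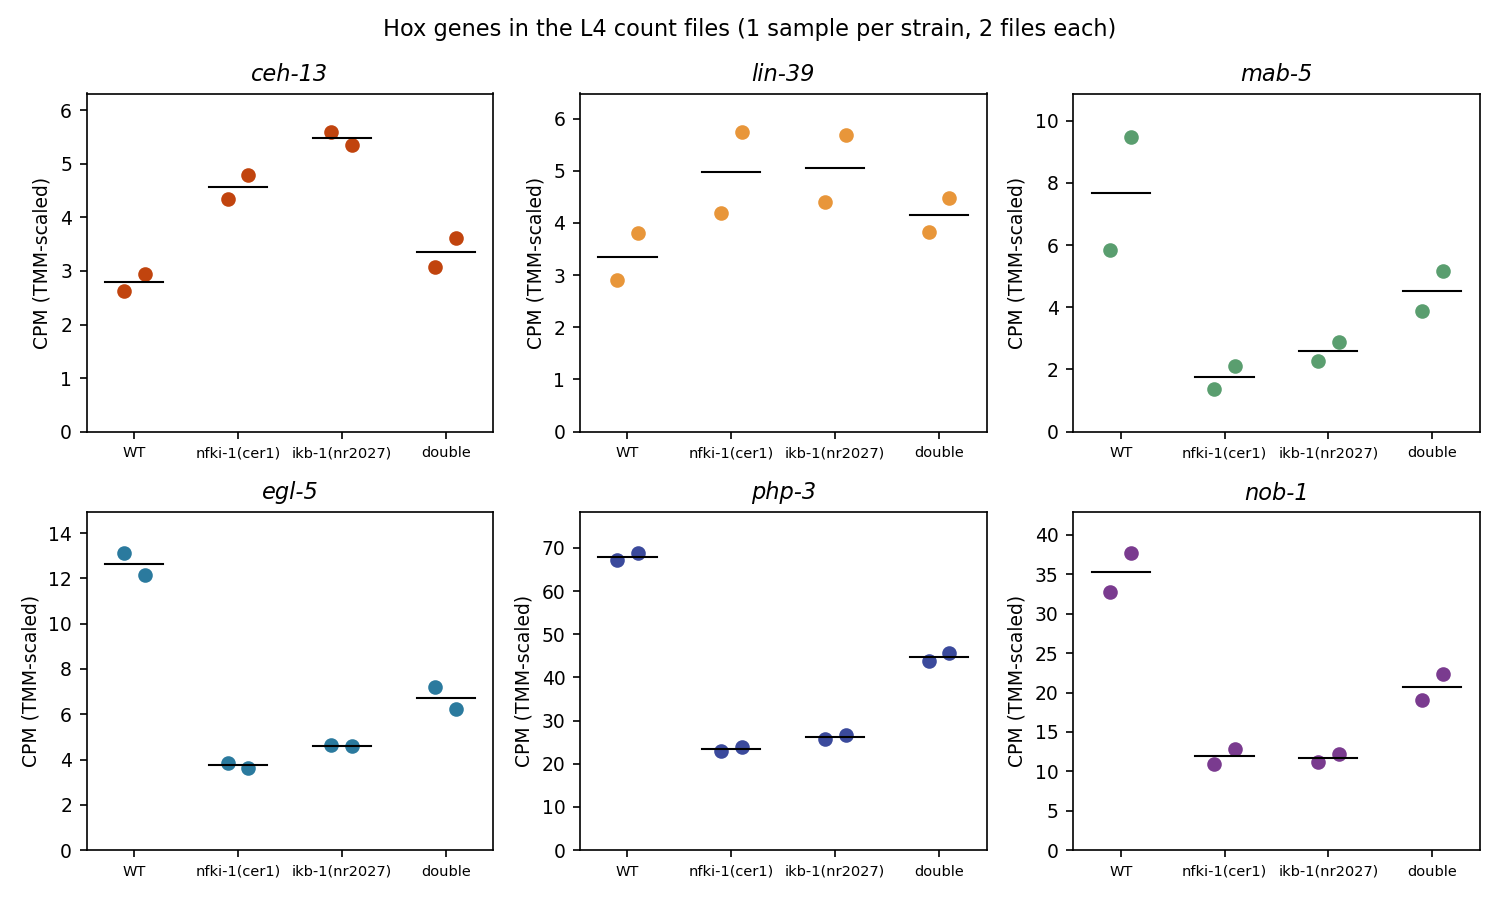
TMM-scaled CPM (vertical axes, linear, from 0) of each Hox gene in the 4 L4 strains (horizontal axes). Each point is 1 of the 2 files of a strain, and the line is the value of the strain with both files averaged; WT is the lowest strain for *ceh-13* (2.79 CPM) and *lin-39* (3.35) and the highest for *mab-5* (7.67), *egl-5* (12.6), *php-3* (68.0) and *nob-1* (35.2).

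In *nfki-1(cer1)* against WT the log2 ratio was −2.14 for *mab-5* (95% interval −2.66 to −1.64), −1.76 for *egl-5* (−2.13 to −1.42), −1.54 for *php-3* (−1.69 to −1.40) and −1.57 for *nob-1* (−1.77 to −1.37). All of these intervals lie below the level of a 2-fold decrease. The ratios of *ceh-13*, 0.71 (0.24 to 1.22), and *lin-39*, 0.57 (0.14 to 1.05), were above 0 but under 2-fold. With 1 sample a strain no test was made, and a gene was called when its ratio passed 2-fold. By this rule 4 of the 6 Hox genes were lower and 0 higher, while of the 14878 genes measured 23.3% were lower and 28% higher. The median log2 ratio was −1.55 over the 6 genes and −0.05 over all genes.

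In *ikb-1(nr2027)* against the same WT sample the ratios were −1.57 for *mab-5* (−2.06 to −1.12), −1.45 for *egl-5* (−1.80 to −1.10), −1.37 for *php-3* (−1.52 to −1.23) and −1.59 for *nob-1* (−1.81 to −1.38). *ceh-13* was 0.97 higher on the log2 scale (0.49 to 1.48), just under 2-fold, and *lin-39* 0.59 higher (0.13 to 1.07). With only 1 file per strain used, the ratio of *ceh-13* was 0.94 to 1.16, on both sides of 2-fold. Again 4 of 6 Hox genes were called lower and 0 higher, beside 20% and 27.2% of all genes. The median over the 6 genes was −1.41 and that over all genes −0.03.

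In the double mutant against WT no Hox gene passed 2-fold in either direction, where 7.59% of all genes were lower and 18.8% higher. The posterior genes had ratios of −0.76 for *mab-5* (−1.16 to −0.37), −0.91 for *egl-5* (−1.23 to −0.60), −0.60 for *php-3* (−0.73 to −0.48) and −0.77 for *nob-1* (−0.95 to −0.59), so that these 4 intervals excluded equality with WT. Those of *ceh-13* (0.26, −0.30 to 0.80) and *lin-39* (0.31, −0.18 to 0.81) included it. The 6 genes had a median of −0.68, beside −0.06 for all genes.

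**Figure D2:**
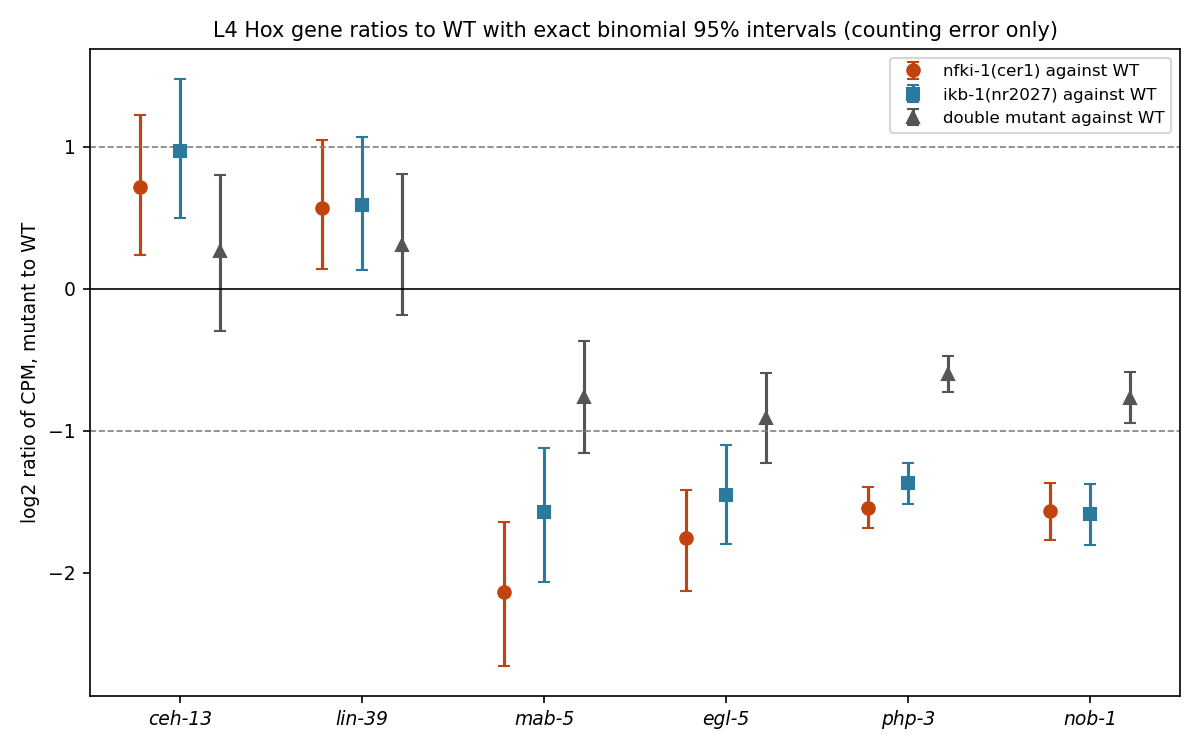
Log2 ratio of CPM of each mutant to WT at L4 (vertical axis) for the 6 Hox genes (horizontal axis), with exact binomial 95% intervals as bars and dashed lines at a 2-fold ratio. The intervals of the 4 posterior genes lie below −1 in both single mutants, and those of the double mutant (dark triangles) are nearer to 0 for all 6 genes.

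The double mutant was then set against each single mutant, a comparison added after the counts had been seen. Relative to *nfki-1(cer1)* it was higher for *mab-5* by 1.38 on the log2 scale (0.84 to 1.93), *egl-5* by 0.84 (0.47 to 1.25), *php-3* by 0.94 (0.79 to 1.09) and *nob-1* by 0.80 (0.58 to 1.02). Relative to *ikb-1(nr2027)* the differences were 0.81 for *mab-5* (0.32 to 1.34), 0.54 for *egl-5* (0.15 to 0.93), 0.77 for *php-3* (0.62 to 0.93) and 0.82 for *nob-1* (0.59 to 1.06). *ceh-13* was lower in the double mutant than in either, with ratios of −0.45 (−0.93 to −0.02) and −0.71 (−1.19 to −0.28), and for *lin-39* both intervals included 0 (−0.69 to 0.14 and −0.72 to 0.15). For *nfki-1(cer1)* against *ikb-1(nr2027)* the interval included 0 for *ceh-13* (−0.64 to 0.12), *lin-39* (−0.39 to 0.38), *mab-5* (−1.16 to 0.05), *egl-5* (−0.74 to 0.10) and *nob-1* (−0.23 to 0.27), and ended at 0.00 for *php-3* (−0.34 to 0.00).

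These intervals hold no variation between animals. When edgeR's quasi-likelihood test was run on the L4 samples and took the spread from the L1 replicates, no Hox gene passed an adjusted p of 0.01 in any strain. The adjusted p in *nfki-1(cer1)* was 0.0656 for *mab-5*, 0.126 for *egl-5*, 0.159 for *nob-1* and 0.212 for *php-3*, and in *ikb-1(nr2027)* it was 0.140, 0.203, 0.172 and 0.274 for the same genes by edgeR.

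Marker lists of several other tissues also differed between the strains at L4, and not all in the same direction. In CPM summed over a list, 26 germ cell genes were at 422 in WT, against 3728 for *nfki-1(cer1)*, 3463 for *ikb-1(nr2027)* and 1451 for the double mutant. All 26 passed 2-fold higher in each single mutant and 24 in the double. The sum of 15 oocyte genes was 272, 5856, 5279 and 1828 CPM in the same order, and that of 6 vitellogenins, the yolk proteins of the adult intestine, 1295, 23170, 28793 and 13091. For 39 sperm genes the sum was 52.7, 202, 196 and 171 CPM, with 18, 17 and 17 of 21 measured genes past 2-fold higher and 0 lower. In this sum the double mutant was nearer to the single mutants than to WT. The sum of 22 body muscle genes, whose cells include some that express Hox genes, was 20002, 7766, 10801 and 14861 CPM, with 14, 9 and 2 of 22 genes past 2-fold lower and 1, 1 and 0 higher. That of 14 epidermal genes was 6431, 1122, 1721 and 4739, with 7, 7 and 5 of 14 lower and none higher. That of 25 neuronal genes was 1115, 778, 830 and 889, with 8, 4 and 1 of 25 lower and 1 higher in each. That of 13 intestinal genes was 23117, 9690, 9758 and 16625, with 2, 3 and 0 of 13 lower and none higher. That of 9 pharyngeal genes was 52.1, 52.7, 77.5 and 89.9, with 2, 4 and 4 of 7 measured genes higher and 1, 1 and 0 lower. That of 17 genes of vulva and somatic gonad was 258, 261, 271 and 213, with 2, 1 and 1 of 14 measured genes higher and 3, 3 and 1 lower. Beside the shares of all genes, nothing particular is read from the counts of the neuronal, intestinal, and vulva and somatic gonad lists. The part of these differences in the Hox values was not tested beyond the scaling that follows.

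When CPM were scaled so that the median muscle and neuron gene was equal between strains, the median of all genes moved to 0.85 for *nfki-1(cer1)*, 0.68 for *ikb-1(nr2027)* and 0.42 for the double mutant. The share of higher genes among those called then went from 54.6% to 86.6%, from 57.6% to 86.2% and from 71.3% to 88.2%. No Hox gene changed direction. In *nfki-1(cer1)* the ratios became −1.24 for *mab-5*, −0.85 for *egl-5*, −0.64 for *php-3* and −0.67 for *nob-1*, and *ceh-13* and *lin-39* reached 1.61 and 1.47. In *ikb-1(nr2027)* they became −0.86, −0.75, −0.67 and −0.88 for the posterior genes and 1.68 and 1.30 for *ceh-13* and *lin-39*. The number of Hox genes past 2-fold was then 3, 2 and 0, beside 8009, 7219 and 4469 of all 14878 genes. Of these Hox genes *mab-5* in *nfki-1(cer1)* was the 1 lower gene, so that all 4 lower genes of *ikb-1(nr2027)* fell short of 2-fold. With library totals in place of TMM the median over all genes was 0.36, 0.31 and 0.14, and the share of higher genes among those called was 72.5%, 73.6% and 80.0%. Then 5, 5 and 0 Hox genes passed 2-fold, beside 7394, 6796 and 3979 of all genes.

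The composition of the Hox reads within a library needs no scaling between libraries. This share, and the grouping of *ceh-13* with *lin-39* against the other 4 genes, were chosen after the counts had been seen. At L4 *ceh-13* and *lin-39* together took 4.45% and 5.00% of the Hox reads in the WT files, 17.9% and 19.9% with *nfki-1(cer1)*, 18.5% and 19.2% with *ikb-1(nr2027)*, and 8.51% and 9.25% with both mutations. The exact binomial 95% interval of the first WT file was 3.64% to 5.37%, and the intervals of WT, the double mutant and the single mutants did not overlap. Reads on the posterior 4 outnumbered those on *ceh-13* and *lin-39* by 21.5 and 18.99 to 1 in WT, by 4.57 and 4.02 with *nfki-1(cer1)*, by 4.39 and 4.21 with *ikb-1(nr2027)* and by 10.8 and 9.81 with both mutations. Summed over the 6 genes, CPM of the reads on genes without TMM scaling were 106 and 115 in WT, 53.8 and 59.9 with *nfki-1(cer1)*, 57.6 and 61.5 with *ikb-1(nr2027)*, and 78.8 and 85.3 for the double mutant.

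At L1 the share of *ceh-13* and *lin-39* was 42.2% and 41.8% in WT, 38.8% and 40.6% in *nfki-1(cer2)*, and 44.2% and 47.5% in *ikb-1(cer9)*. Every L1 library was above every L4 file, and the mutants lay on either side of WT. Some binomial intervals were apart at L1 too. In replicate 2 that of *ikb-1(cer9)* was 45.5% to 49.5%, against 40.1% to 43.6% in WT. In replicate 1 that of *nfki-1(cer2)* was 37.5% to 40.2%, against 40.8% to 43.6% in WT. In the other replicate of each mutant the interval overlapped that of WT, and these intervals hold counting error alone.

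**Figure D3:**
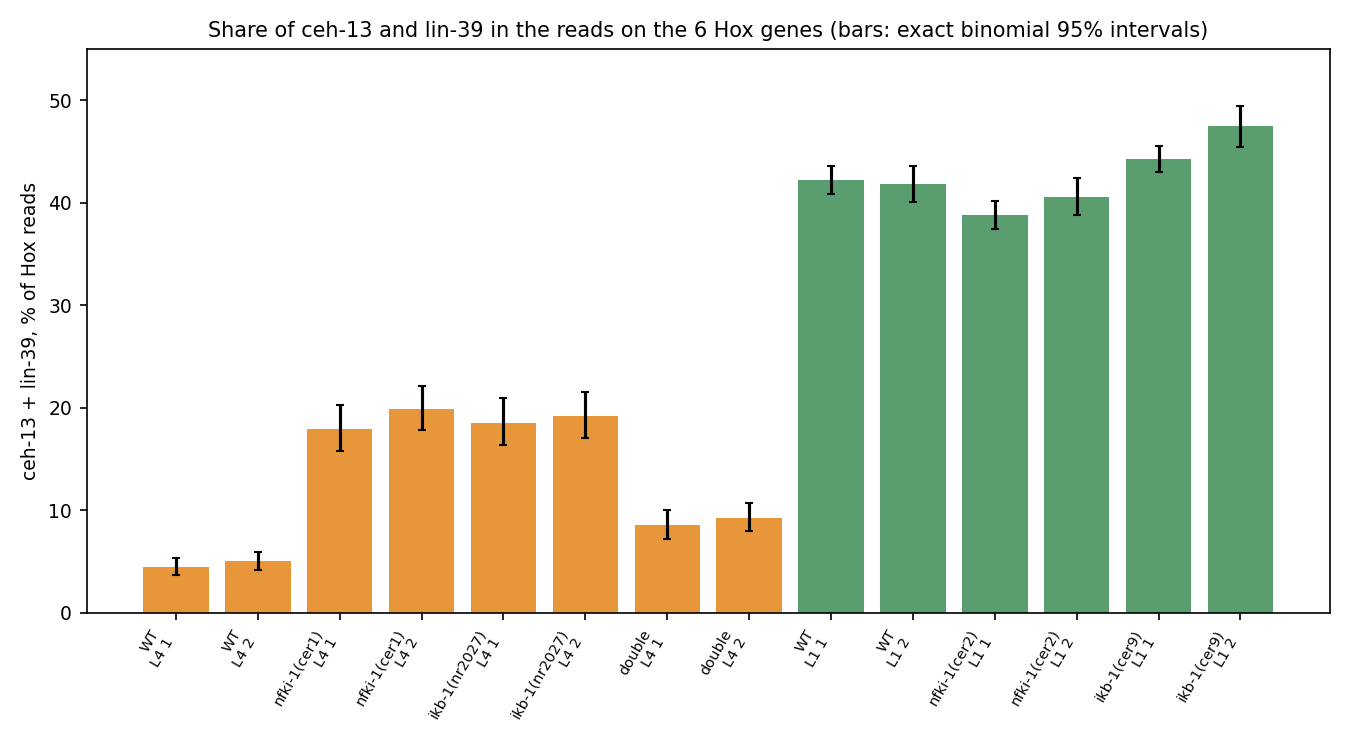
Share of *ceh-13* and *lin-39* in the reads on the 6 Hox genes, in percent (vertical axis from 0), in each of the 14 count files (horizontal axis; orange, L4; green, L1), with exact binomial 95% intervals as error bars. The share is lowest in WT L4 (4.45% and 5.00%), intermediate in the double mutant and the single mutants, and at least 38.8% in all L1 libraries.

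Genes beside the Hox genes had ratios of the opposite sign in some cases and of the same sign in others. The 2 nearest protein-coding genes on each side were taken, a choice made after the counts had been seen. Next to *mab-5*, *bath-15*, 801 bp away, had a log2 ratio of 2.74 for *nfki-1(cer1)*, 2.59 for *ikb-1(nr2027)* and 1.85 for the double mutant. *cyk-7*, which lies between *mab-5* and *egl-5*, had 1.92, 2.02 and 1.28. Both were thus far above WT where the Hox genes beside them were below it. Near *lin-39*, *lig-4*, a DNA ligase gene 3770 bp away, had 1.17, 0.96 and −0.20, and near *ceh-13*, *lgc-12*, 4130 bp away, had −1.82, −0.44 and −0.52. Near *php-3*, *zyg-8*, 2147 bp away, had 0.38, 0.37 and 0.10. In the single mutants *lig-4* thus had the sign of *lin-39*. The same sign as *php-3* and *nob-1* was found for *arx-3* (−0.65, −0.49 and −0.26) and *lonp-2* (−0.58, −0.63 and −0.43). The remaining neighbours, *ttr-8*, C07H6.2, ZK686.1, *egl-45*, *kcmf-1* and *cest-12*, had the opposite sign to their Hox gene in both single mutants. Over the 2038 genes of chromosome III that were measured, 29.2% passed 2-fold upward and 18.01% downward with *nfki-1(cer1)*, as did 28.4% and 14.1% with *ikb-1(nr2027)*.

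Genes that work with or on Hox genes were read from 5 lists, to be read against all 14878 genes. Of these, *nfki-1(cer1)* had 28% higher and 23.3% lower, *ikb-1(nr2027)* had 27.2% and 20%, and the double mutant had 18.8% and 7.59%. Hox proteins bind DNA with Pbx and Meis cofactors, and of the 5 cofactor genes 1 was past 2-fold higher and 2 lower for *nfki-1(cer1)*, while *ikb-1(nr2027)* had 1 higher and 1 lower and the double mutant 1 higher and 0 lower (all genes 28% and 23.3%, 27.2% and 20%, and 18.8% and 7.59%). The Meis-type gene *psa-3* was at 19.98 CPM in WT, 6.63 and 6.07 in the single mutants and 13.1 in the double mutant, with log2 ratios of −1.59, −1.72 and −0.61. The Pbx gene *ceh-20* was at 31.4, 14.7, 17.5 and 19.9 CPM, with ratios of −1.09, −0.84 and −0.65. The other Pbx-type gene named by the rule, *ceh-60*, was at 15.2, 18.3, 18.9 and 17.5 CPM (ratios 0.27, 0.32 and 0.20). *psa-3* had the order of strains seen for the posterior Hox genes, with the double mutant between WT and both single mutants.

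Of 17 measured chromatin genes that repress or maintain Hox genes, 9 passed 2-fold higher and 0 lower in each single mutant, while the double mutant had 1 of each, where 28%, 27.2% and 18.8% of all genes were higher and 23.3%, 20% and 7.59% lower. The list had medians of 1.38, 1.19 and −0.02, beside −0.05, −0.03 and −0.06 over all genes. *lin-49*, a bromodomain gene of the trithorax type that maintains Hox expression, was at 12.2 CPM in WT, 83.7 with *nfki-1(cer1)*, 75.4 with *ikb-1(nr2027)* and 14.9 with both mutations. *set-2*, an H3K4 methyltransferase gene, was at 16.3, 93.4, 78.5 and 21.1 CPM, and *mig-32*, a ring finger gene of a Polycomb-like complex that restricts Hox expression, at 9.65, 54.2, 47.7 and 17.4 CPM. The list thus holds genes that keep Hox genes on and genes that keep them off, and the named ones were higher in both single mutants in either case.

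Of 21 genes of signals and factors upstream of Hox genes, 6 passed 2-fold higher and 7 lower with *nfki-1(cer1)*, 6 and 6 with *ikb-1(nr2027)*, and 3 and 0 with both mutations. Over all genes these shares were 28% and 23.3%, 27.2% and 20%, and 18.8% and 7.59%, and nothing particular to the list is read from its counts. *lin-3*, the EGF ligand that raises *lin-39* in vulval precursors, was at 1.07 CPM in WT, 21.98 and 19.7 in the single mutants and 5.13 in the double mutant (log2 ratios 4.36, 4.20 and 2.26). The Wnt gene *mom-2* was at 4.69, 39.4, 33.4 and 10.6 CPM (3.07, 2.83 and 1.17), and *pal-1*, the *caudal* homolog, at 8.31, 51.5, 43.3 and 20.1 CPM (2.63, 2.38 and 1.27). All 3 were highest in a single mutant and above WT in the double mutant, as were the summed germ cell and oocyte markers. Which cells of the whole larvae held these transcripts was not tested.

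Of 14 measured genes described as acting downstream of Hox genes, 2 passed 2-fold higher and 7 lower with *nfki-1(cer1)*, 2 and 6 with *ikb-1(nr2027)*, and 3 and 3 with both mutations, where 28%, 27.2% and 18.8% of all genes were higher and 23.3%, 20% and 7.59% lower. The cell fusion gene *eff-1* was at 6.57 CPM in WT and at 2.32, 1.92 and 2.44 in the mutants, *hlh-8*, the Twist gene of the M lineage, at 2.82, 0.832, 0.9004 and 1.51, and the TGF-β family gene *unc-129* at 17.5, 6.20, 5.57 and 8.83. All 3 were lowest in a single mutant, with ratios between −1.78 and −1.50 there. Among 40 other homeobox genes measured at L4, of 63 listed, 10 passed 2-fold higher and 12 lower with *nfki-1(cer1)*, 7 and 10 with *ikb-1(nr2027)*, and 5 and 4 with both mutations, beside the same shares of all genes. *ceh-83* was at 1.13, 6.34, 5.40 and 1.76 CPM and the Msx-type gene *vab-15* at 2.60, 0.495, 0.995 and 1.08.

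At L1 the Hox genes were not seen to differ between strains beyond the spread of the replicates. The question was the same as at L4, with other alleles. *ceh-13* had 16.1 and 13.6 CPM in both WT libraries, 15.2 and 10.6 in *nfki-1(cer2)*, and 22.4 and 9.25 in *ikb-1(cer9)*. *lin-39* had 17.8 and 10.5 CPM in WT, 15.01 and 9.41 in *nfki-1(cer2)*, and 20.2 and 10.5 in *ikb-1(cer9)*. For both genes replicate 1 was the higher library in every strain and the strains overlapped.

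*mab-5* had 8.58 and 7.98 CPM in WT, 10.6 and 7.52 in *nfki-1(cer2)*, and 12.8 and 5.84 in *ikb-1(cer9)*. *egl-5* had 5.76 and 3.85 CPM in WT, 5.25 and 3.13 in *nfki-1(cer2)*, and 5.96 and 2.75 in *ikb-1(cer9)*. The WT libraries of both genes overlapped those of each mutant, and replicate 1 was again the higher. *php-3* had 20.2 and 11.7 CPM in WT, 18.3 and 9.87 in *nfki-1(cer2)*, and 19.5 and 7.51 in *ikb-1(cer9)*. *nob-1* had 11.8 and 10.0 CPM in WT, 13.4 and 8.78 in *nfki-1(cer2)*, and 15.5 and 5.79 in *ikb-1(cer9)*. No Hox gene had WT libraries apart from those of a mutant.

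**Figure D4:**
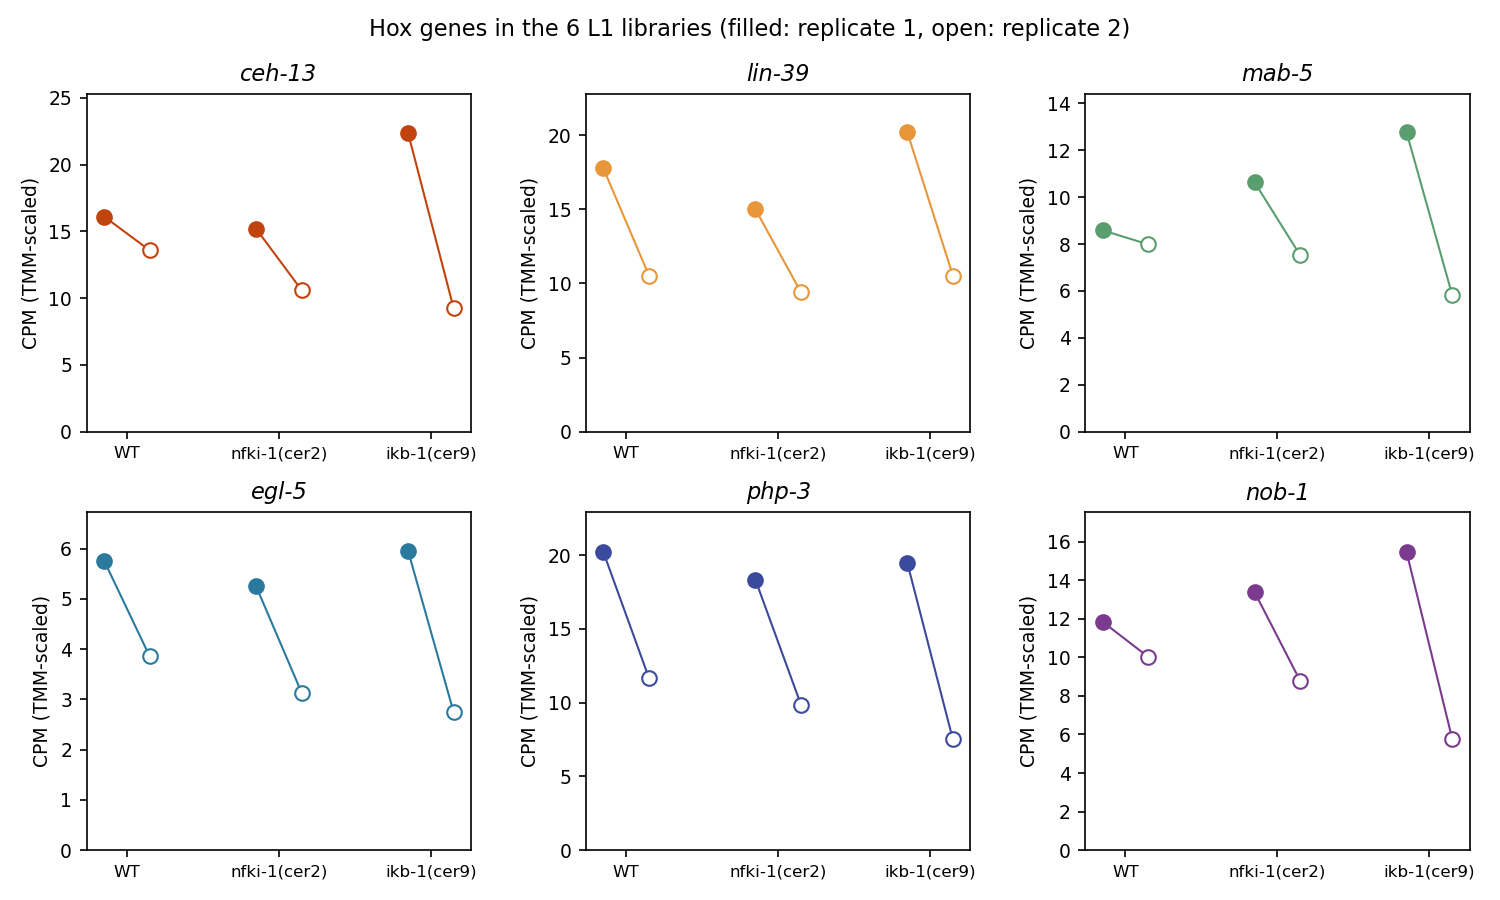
TMM-scaled CPM (vertical axes, linear, from 0) of each Hox gene in the 6 L1 libraries (horizontal axes, strains). Filled points are replicate 1, open points replicate 2, and the line joins both libraries of a strain; replicate 2 is the lower library for all 6 genes in all 3 strains, by most in *ikb-1(cer9)*, where *ceh-13* was at 22.4 and 9.25 CPM.

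By edgeR's quasi-likelihood test over the 6 L1 libraries, log2 changes in *nfki-1(cer2)* were −0.20 (SE 0.430) for *ceh-13*, −0.21 (SE 0.428) for *lin-39*, 0.13 (SE 0.398) for *mab-5*, −0.20 (SE 0.469) for *egl-5*, −0.18 (SE 0.539) for *php-3* and 0.02 (SE 0.473) for *nob-1*. In *ikb-1(cer9)* they were 0.09, 0.12, 0.17, −0.14, −0.24 and −0.04 in the same order. The smallest unadjusted p was 0.636 and 0.671, and every adjusted p by edgeR was 1.00. So 0 of 6 Hox genes passed an adjusted p of 0.01 in either mutant, with 0% of the 19183 genes tested called in either direction. The targeted gene *ikb-1* in *ikb-1(cer9)* did not pass by edgeR either, at −4.52 (SE 0.302, unadjusted p = 4.24e-06, adjusted p = 0.0813). The lack of a Hox call therefore cannot tell no change from a change that was missed. At an unadjusted p under 0.05 edgeR had 66 higher and 109 lower genes for *nfki-1(cer2)* and 141 and 93 for *ikb-1(cer9)*, none of them a Hox gene, and DESeq2 called 2 and 10 genes, 0 of them Hox genes. The median log2 change was −0.19 over the 6 genes and 0.00 over all genes in *nfki-1(cer2)*, and 0.02 and −0.02 in *ikb-1(cer9)*. Leaving out 1 library, of WT or of the mutant, turned the direction of 6 of 6 genes in each comparison, with *ceh-13* in *ikb-1(cer9)* between −0.65 without replicate 1 of that mutant and 0.59 without its replicate 2.

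Replicate 2 was below replicate 1 for every Hox gene in every L1 strain, by most in *ikb-1(cer9)*. From replicate 1 to replicate 2 the log2 ratio of CPM in WT was −0.25 for *ceh-13*, −0.75 for *lin-39*, −0.10 for *mab-5*, −0.58 for *egl-5*, −0.79 for *php-3* and −0.24 for *nob-1*, when the median of all genes was −0.04. In *nfki-1(cer2)* these ratios were between −0.89 and −0.50, and in *ikb-1(cer9)* between −1.42 and −0.94, with medians of all genes of −0.02 and 0.00. Ranked among all genes, the Hox genes stood between percentiles 16.9 and 45.5 in WT, 12.3 and 21.6 in *nfki-1(cer2)*, and 6.51 and 12.2 in *ikb-1(cer9)*. Within replicate 1 *ikb-1(cer9)* against WT was at 0.47 for *ceh-13* and 0.38 for *nob-1*, and within replicate 2 at −0.56 and −0.79, so the directions differed between the replicate numbers. Within both replicates *nfki-1(cer2)* was below WT for *ceh-13* (−0.08 and −0.36), *lin-39* (−0.24 and −0.16), *egl-5* (−0.13 and −0.30) and *php-3* (−0.14 and −0.24), with no test of these ratios, which were added after the counts had been seen.

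Across stages the levels were compared per length, as CPM per kb of exon with all 10 samples scaled together. In WT at L1 the order was *ceh-13* (14.9 ± 1.47, SD, n = 2), *php-3* (11.6 ± 4.15), *lin-39* (9.43 ± 3.21), *mab-5* (6.96 ± 0.204), *nob-1* (4.71 ± 0.452) and *egl-5* (2.83 ± 0.733). The ranges of *ceh-13* and *php-3* overlapped, as did those of *php-3* and *lin-39*. In WT at L4 it was *php-3* (61.0), *nob-1* (18.7), *egl-5* (9.16), *mab-5* (7.91), *ceh-13* (3.45) and *lin-39* (2.75), where *egl-5* and *mab-5*, and *ceh-13* and *lin-39*, did not differ beyond counting error. The most anterior gene thus had the highest mean level of the 6 in L1 WT larvae and the level below all posterior genes at L4.

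In *nfki-1(cer1)* at L4 the order was *php-3* (20.1), *nob-1* (6.04), *ceh-13* (5.42), *lin-39* (3.92), *egl-5* (2.60) and *mab-5* (1.73), in which *nob-1* and *ceh-13* did not differ beyond counting error. In *ikb-1(nr2027)* it was *php-3* (22.4), *ceh-13* (6.43), *nob-1* (5.89), *lin-39* (3.94), *egl-5* (3.19) and *mab-5* (2.53), where *ceh-13* and *nob-1*, *lin-39* and *egl-5*, and *egl-5* and *mab-5* could not be separated. In both, *ceh-13* and *lin-39* were above *egl-5* and *mab-5*, the reverse of WT at the same stage, apart from the unresolved pair of *lin-39* and *egl-5* in *ikb-1(nr2027)*. The double mutant kept the order of WT, with *php-3* at 40.3, *nob-1* at 10.996, *egl-5* at 4.88, *mab-5* at 4.69, *ceh-13* at 4.15 and *lin-39* at 3.42, but the last 4 were not separable from their neighbours. At L1 *nfki-1(cer2)* had the order of WT, from *ceh-13* (12.9 ± 3.11) to *egl-5* (2.46 ± 0.854). In *ikb-1(cer9)* *ceh-13* was first (16.1 ± 9.20) and *egl-5* last (2.59 ± 1.32), and every gene overlapped its neighbours in the order.

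**Figure D5:**
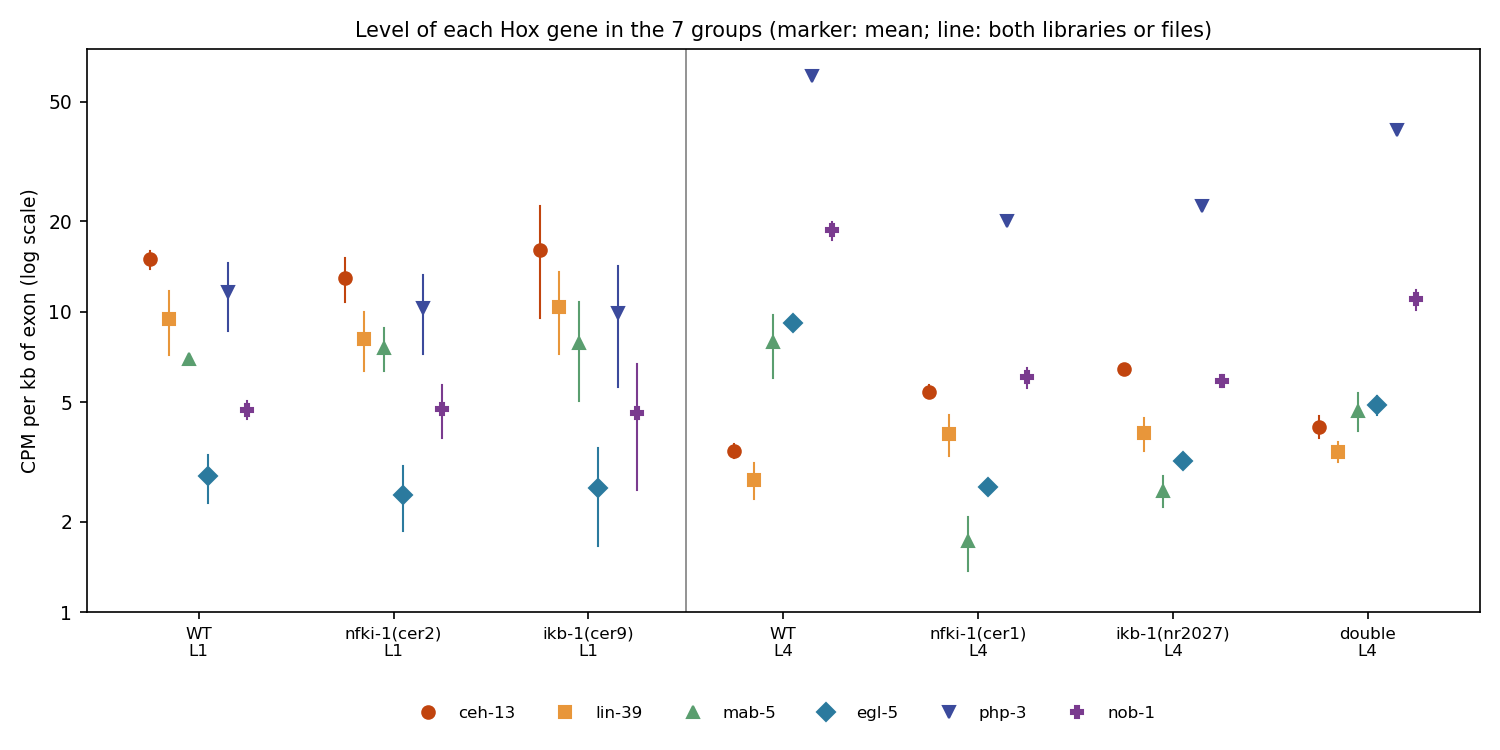
Level of each Hox gene in CPM per kb of exon (vertical axis, log scale) in the 7 groups (horizontal axis; L1 left and L4 right of the grey line). Markers are means and lines run between both libraries or files of a group; *php-3* is the highest gene in all 4 L4 groups, from 61.0 in WT to 20.1 in *nfki-1(cer1)*, while *ceh-13* has the highest mean in the 3 L1 groups.

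In WT *ceh-13* had 15.97 and 13.9 CPM per kb in the L1 libraries and 3.25 and 3.64 in the L4 files, and *lin-39* 11.7 and 7.16 at L1 and 2.38 and 3.13 at L4. Both were lower at L4 in each file. *php-3* had 14.5 and 8.66 CPM per kb at L1 and 60.2 and 61.8 at L4, *nob-1* 5.03 and 4.39 at L1 and 17.4 and 19.9 at L4, and *egl-5* 3.35 and 2.31 at L1 and 9.50 and 8.82 at L4. These 3 were higher at L4 in each file, and *mab-5*, with 7.10 and 6.82 at L1 and 6.04 and 9.79 at L4, overlapped.

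The stage comparison used edgeR with the L1 spread, each lone L4 sample being taken to vary like the L1 groups. A change from L1 to L4 also holds the starvation at L1 and any difference in library preparation and run. In WT the log2 change from L1 to L4 was −2.17 (SE 0.605) for *ceh-13*, −1.84 (SE 0.585) for *lin-39*, 0.13 (SE 0.494) for *mab-5*, 1.64 (SE 0.539) for *egl-5*, 2.34 (SE 0.612) for *php-3* and 1.93 (SE 0.541) for *nob-1*, and the median of all genes was −0.68. The adjusted p by edgeR was 0.0309, 0.0458, 0.835, 0.0507, 0.0252 and 0.0312. So 0 of 6 passed 0.01, beside 10.1% of 21275 genes called higher and 10.9% lower. Unadjusted, 5 of 6 were under 0.05, as were 4815 higher and 6586 lower genes among the 21275. DESeq2 called 3 of 6, beside 6945 genes in all. With the replicate number of the L1 libraries as a block, edgeR called 5 of 6, beside 7486 genes in all. The adjusted p of this fit was 0.00555 for *ceh-13*, 0.00190 for *lin-39*, 0.00329 for *egl-5*, 0.000451 for *php-3* and 0.00473 for *nob-1*.

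In the *nfki-1* mutants the change from L1 (*cer2*) to L4 (*cer1*) was −2.19 for *mab-5* (adjusted p = 0.0219 by edgeR), 0.01 for *egl-5* (0.985), 0.91 for *php-3* (0.256) and 0.29 for *nob-1* (0.685), whereas *ceh-13* at −1.30 (0.103) and *lin-39* at −1.11 (0.143) turned to 0.33 and 0.52 under the muscle and neuron scaling. By edgeR 0 of 6 passed, with 12.9% of all genes called higher and 12.6% lower. DESeq2 called 1 of 6, beside 7474 of the 21275 genes. With the replicate block edgeR called 2 of 6, *lin-39* (adjusted p = 0.00971) and *mab-5* (0.00545), beside 8194 genes in all. In the *ikb-1* mutants the change was 0.25 for *egl-5* (adjusted p = 0.724 by edgeR), 1.12 for *php-3* (0.175) and 0.30 for *nob-1* (0.670), and −1.37 for *ceh-13* (0.0907), −1.46 for *lin-39* (0.0754) and −1.71 for *mab-5* (0.0445), of which the last 3 turned to 0.38, 0.28 and 0.036 under that scaling. Again 0 of 6 passed, with 13.3% of all genes called higher and 12.7% lower. DESeq2 called 0 of 6, beside 7643 genes in all. With the block edgeR called 2 of 6, *lin-39* (adjusted p = 0.00366) and *php-3* (0.00423), beside 8416 genes in all. Under the muscle and neuron scaling the median of all genes moved from −0.68 to 0.27 in WT, from −0.60 to 1.03 in the *nfki-1* mutants and from −0.66 to 1.04 in the *ikb-1* mutants, and the share of higher genes among those called from 48.1% to 80.9%, from 50.6% to 88.7% and from 51.1% to 90.0%. Library totals moved that of WT to −1.17, with 31.9% of called genes higher.

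Whether a mutant's change from WT differed between the stages was tested as a difference of differences in the same edgeR fit. For *nfki-1* it was −2.33 for *mab-5* (SE 0.728, unadjusted p = 0.0177, adjusted p = 0.120), −1.63 for *egl-5* (adjusted p = 0.280), −1.43 for *php-3* (0.400), −1.65 for *nob-1* (0.275), 0.86 for *ceh-13* (0.575) and 0.74 for *lin-39* (0.641). For *ikb-1* it was −1.84 for *mab-5* (SE 0.720, unadjusted p = 0.0419, adjusted p = 0.210), −1.39 for *egl-5*, −1.22 for *php-3*, −1.64 for *nob-1*, 0.80 for *ceh-13* and 0.38 for *lin-39*. By edgeR 0 of 6 Hox genes passed in either, beside 0.0376% and 0% of all genes higher and 0% and 0% lower. DESeq2 called 0 of 6 in either, beside 1709 and 1385 genes in all. At an unadjusted p under 0.05 edgeR had 2798 genes higher and 2395 lower for *nfki-1* and 2666 and 2003 for *ikb-1*, *mab-5* among the lower ones in both. With the replicate block edgeR called 1077 and 778 genes and 0 of 6 Hox genes, with *mab-5* at an adjusted p of 0.0325 and 0.0720. The absence of a call at L1 beside the ratios at L4 is therefore not a shown difference between the stages.

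The other homeobox genes gave a background for the stage comparison. Of 61 tested, 1 passed higher and 32 lower in WT from L1 to L4, with a median log2 change of −2.50. In the *nfki-1* mutants 3 passed higher and 29 lower, and in the *ikb-1* mutants 1 and 31. The median of the Hox genes in WT was 0.89, but their changes ran from −2.17 for *ceh-13* to 2.34 for *php-3* and none passed in the main test. The sum of 25 neuronal marker genes, a cell type in which many homeobox genes act, was 3706 to 4124 CPM in the L1 libraries and 1115 in WT at L4.

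Last, the genes whose level followed each Hox gene most closely were taken by Pearson's r of log2 CPM over the 10 samples after the mean of each stage had been removed, among 14226 genes. The samples share libraries, stages and the WT reference, and r is given as a description. For *ceh-13* the 3 highest were *frm-7* (0.951), T09B9.4 (0.933) and *mdt-21* (0.931), and for *lin-39* *scpl-1* (0.989), *dab-1* (0.972) and *arf-6* (0.971). For *mab-5* they were *mab-9* (0.985), F30B5.7 (0.980) and R08C7.1 (0.979), and for *egl-5* ZC247.2 (0.979), K10D6.4 (0.978) and *col-110* (0.978). For *php-3* they were *egl-5* (0.977), *gcy-37* (0.976) and *nhr-85* (0.970), and for *nob-1* Y38H6C.17 (0.985), R08C7.1 (0.971) and *hda-11* (0.970). A Hox gene was thus among the 3 closest genes for *php-3* only, and R08C7.1 was close to both *mab-5* and *nob-1*.

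Among the Hox genes themselves r over the 10 samples was 0.898 to 0.977 for the 6 pairs of posterior genes, 0.879 for *ceh-13* with *lin-39*, and −0.11 to 0.30 for an anterior with a posterior gene. For these last pairs r was −0.989 to −0.885 over the 4 L4 samples and 0.777 to 0.933 over the 6 L1 libraries. The anterior and posterior genes thus moved in opposite directions among the L4 strains. Among the L1 libraries they moved in the same direction, where every Hox gene was lower in replicate 2 than in replicate 1 of each strain.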

How the data were processed

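Total RNA of synchronized whole larvae was sequenced in 14 libraries. According to the methods and the submitters' processing notes, the authors trimmed reads with Trim Galore, aligned them to WBcel235 with Bowtie2 and counted high quality alignments per gene with HTSeq; CASAVA 1.4, FastQC and DESeq2 are also named, and the strand setting is not given in the sources used here. The labels' extraction text also describes collagenase digestion, sorting and amplification by long distance PCR, which the methods do not mention. The deposited values were used as raw read counts without normalization, since they are whole numbers with different totals. Reads assigned to no gene, 13.4% to 15.9% of an L4 file and 15.9% to 20.0% of an L1 library, were left out.

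Genes were kept by filterByExpr (minimum count 10) and scaled by TMM in edgeR 4.0.16 (R 4.3.3; limma 3.58.1). At L4 both files of a strain were averaged and log2 ratios given with exact binomial 95% intervals and a 2-fold rule. At L1, and over 10 samples for the stages, edgeR's quasi-likelihood test was used at a Benjamini-Hochberg adjusted p below 0.01, the threshold of the study. DESeq2 1.42.0, other scalings and filters, each file or library left out, and a replicate block were alternatives. Gene models came from Ensembl 115, and figures from Python 3.11.15 with numpy 2.4.6 and matplotlib 3.10.9. Same-numbered L1 libraries deviated together from their group means (r 0.418 to 0.647 over the 3 pairs of strains), which comes from the data and not from the labels, so blocked values are given where they change a call. The scripts were tested on simulated data. Nothing says that the L1 replicates were separate cultures, so p-values measure only the spread between these libraries.

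The genes and lists were chosen with earlier results of these data known. The rule for named genes took all 6 Hox genes, up to 3 genes per related list with the largest mean absolute L4 ratio and a mean of at least 1 CPM, and the 3 genes of highest correlation with each Hox gene. The neighbours, the shares of Hox reads, the ratios within a replicate number and the comparisons of the double with the single mutants were added after the data had been seen. Intervals cover counting error only.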

Additional observations from a re-analysis of the deposited data

How the results depend on the processing

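At L4 no Hox gene past 2-fold changed direction under any scaling, filter or file choice. With the spread of the L1 replicates edgeR called 459, 149 and 0 genes for *nfki-1(cer1)*, for *ikb-1(nr2027)* and for the double mutant in place of 7643, 7024 and 3930, and 0 Hox genes in place of 4, 4 and 0. With the files as replicates and a replicate block it called 12277, 11930 and 9951 genes and 6, 6 and 4 Hox genes; in the double mutant edgeR without the block called 7359 genes and 3 Hox genes, DESeq2 3 Hox genes, and no filter gave 6385 genes. Under muscle and neuron scaling 2 Hox genes passed 2-fold in *ikb-1(nr2027)*, *ceh-13* and *lin-39*, both higher, beside 7219 genes in all. None of the 4 lower calls was kept. At L1 0 genes and 0 Hox genes were called with or without the replicate block, DESeq2 called 2 and 10 genes, and no filter gave 3 in *ikb-1(cer9)*. The block turned *nob-1* in *nfki-1(cer2)* from 0.02 to −0.025 and *ceh-13* in *ikb-1(cer9)* from 0.09 to −0.021. With 1 library left out, log2 changes in *nfki-1(cer2)* ranged from −0.48 to 0.030 for *ceh-13*, −0.57 to 0.21 for *lin-39*, −0.13 to 0.36 for *mab-5*, −0.61 to 0.12 for *egl-5*, −0.68 to 0.27 for *php-3* and −0.31 to 0.29 for *nob-1*. In *ikb-1(cer9)* they ranged from −0.65 to 0.59, −0.39 to 0.54, −0.47 to 0.62, −0.77 to 0.31, −1.05 to 0.29 and −0.88 to 0.50 in the same order. From L1 to L4 the called genes of WT (4482) became 7486 with the replicate block, 6945 by DESeq2, and 2782 to 4583 with 1 library left out, lowest without replicate 2 of WT or either of *ikb-1(cer9)*. In *nfki-1* (5410) they became 8805 under muscle and neuron scaling, 3546 with at least 10 counts in every library, 8194 with the block, and 2831 to 5441 with 1 library left out. In *ikb-1* (5522) they became 8758 under that scaling, 8416 with the block, and 2377 to 5592 with 1 library left out, lowest in both without a mutant library. Hox genes called in WT, none by the main test, became 3 under that scaling, 1 without a filter, 5 with the block and 3 by DESeq2. All genes called were then 6060, 5646, 7486 and 6945. In *nfki-1* the Hox genes became 1, 1, 2 and 1, beside 8805, 6487, 8194 and 7474 genes in all. In *ikb-1* they became 1 under the scaling and 2 with the block, beside 8758 and 8416. *mab-5* in WT went from 0.13 to −0.36 with library totals, −0.026 with 10 counts in every library, and −0.24 to 0.42 with 1 library left out. In *nfki-1* *egl-5* went from 0.01 to −0.031 with library totals, −0.013 without a filter and −0.13 with 10 counts in every library, and −0.39 to 0.42 with 1 library left out, and *nob-1* ranged from −0.061 to 0.61. In *ikb-1* *egl-5* ranged from −0.27 to 0.89 and *nob-1* from −0.31 to 1.15. Muscle and neuron scaling turned *ceh-13* and *lin-39* to 0.33 and 0.52 in *nfki-1*, and *ceh-13*, *lin-39* and *mab-5* to 0.38, 0.28 and 0.036 in *ikb-1*. The genes whose *nfki-1* effect differed between stages (8) became 46 with library totals, 335 with muscle and neuron scaling, 403 without a filter, 120 with 10 counts in every library, 1077 with the block, 1709 by DESeq2, and 0 to 11 with 1 library left out. For *ikb-1* (0) they became 277, 305, 778 and 1385 with that scaling, no filter, the block and DESeq2, with 0 Hox genes under all settings in both, and *lin-39* ranged from −0.036 to 0.91 around 0.38. The cause of these shifts was not tested. Depth limits the low counts at L4 most, which went down to 35 reads per file for *mab-5*, 49 for *ceh-13* and 54 for *lin-39*.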
